A study of Mus musculus with 12 samples.

Results

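The comparison described here sets 3 liver arrays labelled WT 6 months against 3 labelled WT 24 months, out of 12 Affymetrix mouse arrays in the series. The animals were males of the 129J background, with 1 array per animal. The other groups, KO 6 months and KO 24 months tumor, hold 3 arrays each and came from Iqgap2-/- mice, which lack the gene in the whole body. By label the KO 24 months tumor arrays are hepatocellular carcinoma and the other 9 are normal liver. Values are RMA intensities on the log2 scale, so a difference of 1 is a doubling, and each difference is WT 6 months minus WT 24 months. Where readings of a gene are set against each other, those of WT 6 months replicates 1 to 3 come first and those of WT 24 months replicates 1 to 3 follow. The number of arrays limits the precision. The WT animals were matched to the KO animals by sex and age.

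Group names are used here as labels only, because Iqgap2 and Afp went against them. Iqgap2, the deleted gene, encodes a scaffold protein of the cytoskeleton. It read 8.38, 8.24 and 8.33 in the WT 6 months arrays and 12.28, 12.30 and 11.92 in the WT 24 months arrays (-3.85, SE 0.16, adjusted p = 1.18e-07). It read 8.12, 8.68 and 8.07 in the KO 6 months arrays and 12.15, 12.05 and 12.15 in the KO 24 months tumor arrays. The WT 6 months arrays were thus as low as the KO 6 months arrays, and the tumor-labelled arrays as high as the WT 24 months arrays. A second, dimmer probe set split the 4 groups in the same way, with a difference of -1.10 (adjusted p = 0.000338 over all probe sets).

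Afp is a serum carrier of the fetus that adult liver hardly makes. It read 12.04, 13.05 and 13.27 in the WT 6 months arrays and 6.20, 7.62 and 5.85 in the WT 24 months arrays (6.23, SE 0.40, adjusted p = 3.27e-06). All 6 KO-labelled arrays lay between 6.11 and 6.79. Of its 5 probe sets, 3 gave differences of 6.23 to 6.61, and 2 dim ones gave -0.03 and -0.06.

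Both readings of the labels were therefore kept. Read as deposited, the comparison is of young with old wild-type liver. If KO 24 months tumor and WT 6 months exchanged their labels, it is of Iqgap2-/- tumors with wild-type liver of the same age. The values are identical under both readings, and which of them holds was not tested.

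Hepatocytes divide their work along the path of the blood from the portal tract to the central vein. Periportal cells make glucose and urea and break down amino acids, while pericentral cells, which receive Wnt signals from the central vein, capture ammonium as glutamine and oxidize foreign compounds. Hepatocytes also secrete most plasma proteins and share the tissue with sinusoidal endothelial cells, stellate cells and Kupffer cells, the resident macrophages. In bulk RNA, fewer cells of a type and less RNA per cell cannot be told apart.

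The promoters of a pair of rises (Afp and Nkd1) and a pair of falls (Cyp2f2 and Hal) are shown because they belong to the largest differences in each direction. Each line gives the 250 bases before the start of the gene, 5′ to 3′, from RefSeq on GRCm38.p6. All 4 lie on the plus strand, chr5:90490464-90490713 for Afp, chr8:88527383-88527632 for Nkd1, chr7:27119705-27119954 for Cyp2f2 and chr10:93488518-93488767 for Hal. Capitals mark CTTTGAT, core letters of the TCF/LEF motif through which Wnt signals act.
Afp: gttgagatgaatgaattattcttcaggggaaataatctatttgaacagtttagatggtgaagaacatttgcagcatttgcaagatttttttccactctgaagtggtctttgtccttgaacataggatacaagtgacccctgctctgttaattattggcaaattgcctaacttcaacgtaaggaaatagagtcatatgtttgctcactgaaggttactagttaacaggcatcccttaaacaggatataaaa
Nkd1: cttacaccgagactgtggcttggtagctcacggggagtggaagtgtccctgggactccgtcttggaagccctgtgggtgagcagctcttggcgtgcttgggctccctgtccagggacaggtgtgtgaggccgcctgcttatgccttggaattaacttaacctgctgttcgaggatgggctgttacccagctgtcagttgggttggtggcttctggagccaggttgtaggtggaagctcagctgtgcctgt
Cyp2f2: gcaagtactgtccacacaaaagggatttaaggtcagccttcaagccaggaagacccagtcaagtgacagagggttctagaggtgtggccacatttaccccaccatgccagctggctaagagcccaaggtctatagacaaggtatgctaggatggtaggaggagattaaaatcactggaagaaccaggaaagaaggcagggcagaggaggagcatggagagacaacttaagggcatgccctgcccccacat
Hal: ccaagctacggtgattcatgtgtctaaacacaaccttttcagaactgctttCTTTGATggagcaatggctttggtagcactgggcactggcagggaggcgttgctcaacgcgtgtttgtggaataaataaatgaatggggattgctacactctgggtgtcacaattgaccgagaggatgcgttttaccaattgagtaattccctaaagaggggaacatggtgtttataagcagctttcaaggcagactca

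CTTTGAT and CAAAGTC, core letters bound by the hepatocyte factor HNF4, were searched on both strands from 250 bases before to 50 after the start of each gene with 1 promoter in the table. CTTTGAT stood in 5 of 136 promoters of genes called higher at a fold of 3 (3.68%), in 6 of 140 of genes called lower (4.29%) and in 337 of 11792 of all genes tested (2.86%). CAAAGTC stood in 10 of the higher (7.35%), 9 of the lower (6.43%) and 472 of all (4%). Among the 4 promoters shown, CTTTGAT stood only in that of Hal, within the bases printed.

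Of 18194 genes tested with limma, 218 (1.2%) were called higher and 222 (1.22%) lower in WT 6 months at a fold of 3 or more and an adjusted p of 0.05 or less. With the adjusted p alone, 1286 genes (7.07%) were higher and 1132 (6.22%) lower. These last shares are the background for the gene lists, whose members were called at the adjusted p alone. For the glycolysis, glycogen, respiratory chain and interferon lists, whose lower members numbered 2 or 3, SAM (significance analysis of microarrays, run over all 20 splits of the 6 WT arrays) and limma on the 6 WT arrays alone each called 0. The median difference over all genes was -0.013. SAM called 130 genes higher and 115 lower at a fold of 3 and 545 and 385 without it, and limma on the 6 WT arrays alone called 515 and 408 at the adjusted p. The readings of the groups did not overlap for 4757 genes (26.1%), and since genes are named mostly for a low adjusted p, their separation is a description.

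At a fold of 3, the called genes mostly set the WT 6 months arrays apart from all others. For 207 of the 218 higher genes (95%), these 3 arrays lay above each of the 9 others, against 7.29% of all genes. For 189 of the 222 lower genes (85.1%), they lay under each of the 9 others, against 7.79% of all genes. The WT 24 months arrays lay under the 9 others for 9 of the higher genes (4.13%), against 1.49% of all genes. They lay above the 9 others for 20 of the lower genes (9.01%), against 0.995% of all genes. The compared arrays also chose the called genes, so the shares are a description.

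**Figure D1:**
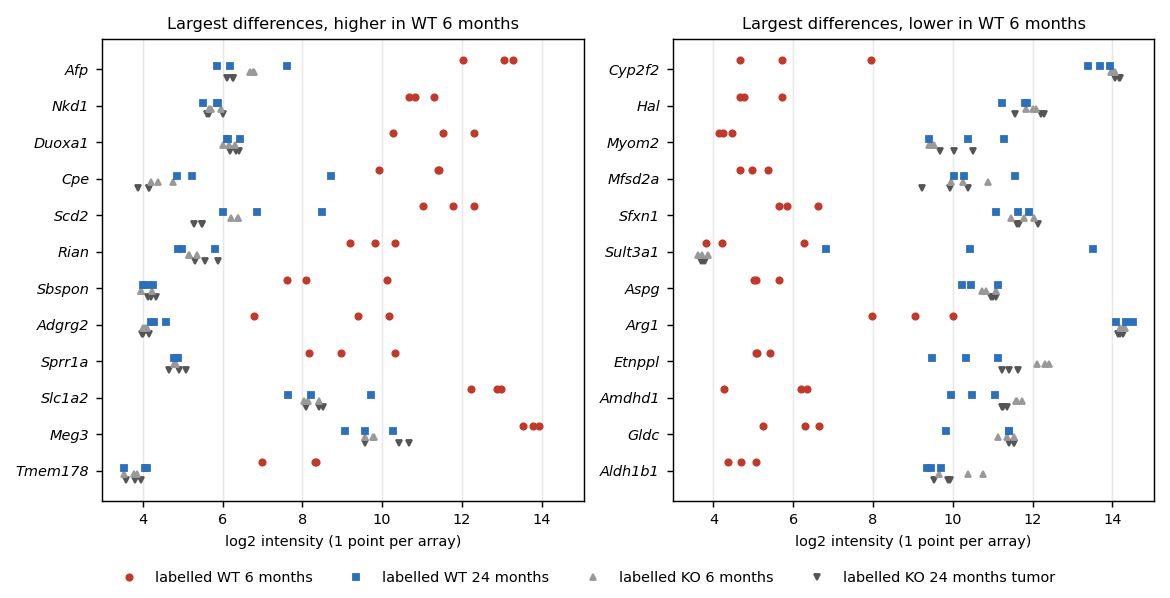
Log2 intensity (horizontal axis) of the 12 largest rises (left) and the 12 largest falls (right), 1 point per array, coloured by deposited label. The genes were picked for groups that do not overlap (red and blue), and for Sult3a1 the 6 KO-labelled arrays (grey) lie at 3.61 to 3.86, around the lowest red point.

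The largest rises were of unlike function. Nkd1, which dampens Wnt signalling, read 10.83, 10.66 and 11.29 against 5.89, 5.87 and 5.51 (5.17, SE 0.18, adjusted p = 4.88e-08). Sprr1a, a precursor of the envelope of skin cells, read 8.16, 8.98 and 10.33 against 4.89, 4.79 and 4.87 (4.31, SE 0.39, adjusted p = 3.78e-05). Adgrg2, an adhesion receptor, read 9.39, 10.17 and 6.79 against 4.20, 4.58 and 4.27 (4.43, SE 0.62, adjusted p = 0.000762). No array of one group reached the other, but WT 6 months replicate 3 had the highest Sprr1a and the lowest Adgrg2 of its group.

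The largest falls were led by Cyp2f2 and Hal, both periportal genes. Cyp2f2, a cytochrome P450, read 4.68, 7.94 and 5.71 against 13.95, 13.40 and 13.69 (-7.57, SE 0.59, adjusted p = 1.22e-05). Aspg, an asparaginase, read 5.03, 5.64 and 5.06 against 11.13, 10.45 and 10.22 (-5.36, SE 0.22, adjusted p = 1.18e-07). Myom2, a protein of the muscle sarcomere, read 4.48, 4.23 and 4.14 against 10.39, 11.27 and 9.41 (-6.08, SE 0.36, adjusted p = 2.11e-06). The groups were separate for each of these, and the KO-labelled arrays lay with the WT 24 months arrays. Sult3a1, a sulfotransferase, read 6.26, 4.21 and 3.82 against 10.44, 13.51 and 6.82 (-5.49, SE 1.24, adjusted p = 0.0128), with the WT 24 months arrays above the 9 others.

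Of 25 pericentral genes, 17 (68%) were called higher and 0 lower, and their median difference was 1.24. Slc1a4, a carrier of neutral amino acids, read 10.22, 9.45 and 9.48 against 5.74, 6.29 and 6.39 (3.58, SE 0.22, adjusted p = 2.36e-06). Lgr5, the R-spondin receptor, read 10.65, 10.68 and 10.55 against 7.02, 6.66 and 7.04 (3.72, SE 0.25, adjusted p = 4.27e-06). Gstm3, a glutathione transferase, read 14.35, 14.17 and 14.36 against 12.18, 12.12 and 11.67 (2.30, SE 0.17, adjusted p = 7.53e-06). No array of WT 24 months reached WT 6 months in these genes.

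Some pericentral genes did not pass. Cyp2e1, which oxidizes ethanol, read 14.62, 14.65 and 14.64 against 14.47, 14.62 and 14.52 (0.10, SE 0.08, adjusted p = 0.527), near the top of the intensity scale. Cyp2c50, another P450, differed by -0.38 (adjusted p = 0.391).

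Of 25 periportal genes, 20 (80%) were lower and 0 higher, with the median at -2.36. Etnppl, which degrades phosphoethanolamine, read 5.10, 5.42 and 5.08 against 10.34, 11.14 and 9.48 (-5.12, SE 0.32, adjusted p = 2.41e-06). Aldh1b1, a mitochondrial aldehyde dehydrogenase, read 4.70, 5.07 and 4.37 against 9.71, 9.45 and 9.36 (-4.79, SE 0.26, adjusted p = 9.75e-07). Both genes were dim in the WT 6 months arrays and the groups were separate. Alb, albumin, read 15.03, 15.03 and 15.10 against 15.15, 15.19 and 15.14 (-0.10, SE 0.08, adjusted p = 0.457) and did not pass, again near the top of the scale.

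The mid-lobular list was small and split, with 2 of 9 genes higher (22.2%), 4 lower (44.4%) and a median of -2.53. SAM and the 6 WT arrays alone each called 2 lower. Igfbp2, which binds insulin-like growth factors, read 9.41, 8.84 and 8.02 against 12.48, 12.70 and 12.43 (-3.78, SE 0.27, adjusted p = 6.77e-06). Hamp, hepcidin, the hormone that blocks iron export, read 10.10, 12.74 and 7.49 against 14.48, 14.54 and 13.48 (-4.05, SE 0.93, adjusted p = 0.0138), with a wide spread in WT 6 months. Akr1c20, an aldo-keto reductase, read 12.81, 12.28 and 12.83 against 11.60, 11.24 and 11.27 (1.27, SE 0.17, adjusted p = 0.000526).

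**Figure D2:**
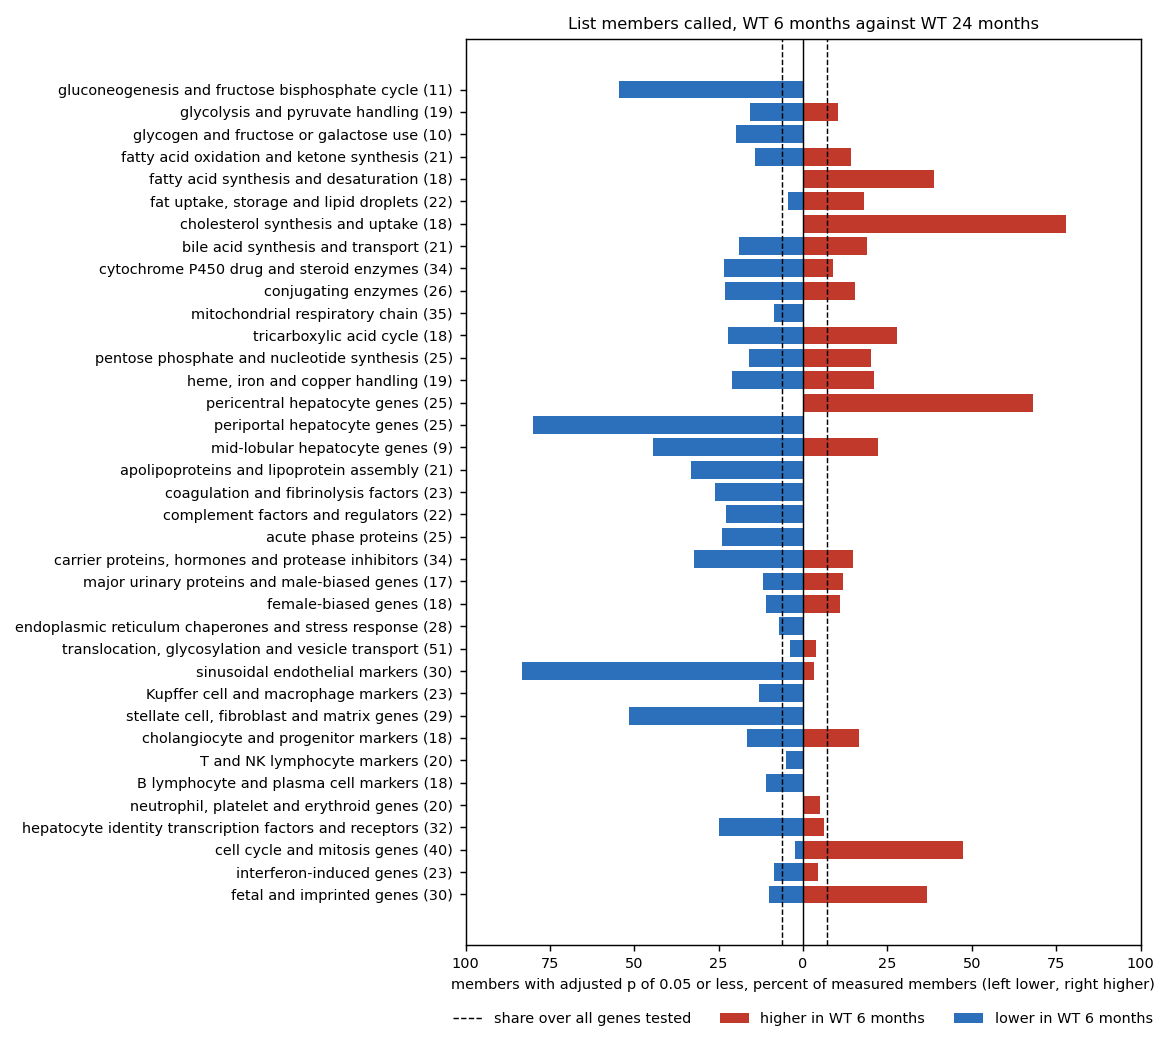
Share of the measured members of 37 gene lists called at the adjusted p (horizontal axis, percent, lower to the left and higher to the right), with the number measured in brackets. Dashed lines give the shares over all genes, 6.22% lower and 7.07% higher, and the longest bars are those of the endothelial (83.3%), periportal (80%), cholesterol (77.8%) and pericentral (68%) lists.

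Of 11 genes of gluconeogenesis, 6 (54.5%) fell and 0 rose, with a median of -0.85. Pck1, which commits carbon to glucose, read 10.57, 10.55 and 10.20 against 13.38, 13.71 and 13.79 (-3.19, SE 0.13, adjusted p = 1.18e-07). Got1, the cytosolic aspartate aminotransferase, read 8.81, 9.51 and 7.04 against 12.10, 13.42 and 12.55 (-4.23, SE 0.51, adjusted p = 0.000261). Slc37a4, the glucose 6-phosphate carrier, read 10.14, 10.26 and 10.51 against 12.25, 12.60 and 11.44 (-1.79, SE 0.23, adjusted p = 0.000463). None of these overlapped between the groups.

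Glycolysis had 2 of 19 genes higher and 3 lower, with a median of -0.13. Pdk4, which switches off pyruvate oxidation, read 9.54, 9.09 and 8.90 against 5.40, 7.28 and 7.88 (2.33, SE 0.57, adjusted p = 0.0187), and its adjusted p was 0.0659 without WT 6 months replicate 1. Ldha, lactate dehydrogenase, read 13.06, 12.99 and 12.64 against 12.79, 12.66 and 13.15 and did not pass (0.03, SE 0.15, adjusted p = 0.945). Of 10 genes of glycogen, fructose and galactose use, 2 fell and 0 rose, and one of the falls was Khk, fructokinase (-1.04, SE 0.23, adjusted p = 0.011).

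Cholesterol synthesis and uptake rose broadly, with 14 of 18 genes higher (77.8%), 0 lower and a median of 1.31. Lss, which closes the sterol rings, read 11.59, 11.42 and 11.21 against 8.80, 9.74 and 9.31 (2.13, SE 0.22, adjusted p = 0.000113). Mvd, mevalonate diphosphate decarboxylase, read 10.24, 10.32 and 9.93 against 7.42, 8.42 and 7.39 (2.42, SE 0.31, adjusted p = 0.000368). Hmgcs1, an early enzyme of the pathway, read 14.04, 14.27 and 14.00 against 11.85, 12.88 and 12.51 (1.69, SE 0.33, adjusted p = 0.00629). Each was separate between the groups. The regulators Srebf2 (0.51, adjusted p = 0.0912) and Insig1 (0.28, adjusted p = 0.572) did not pass.

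Fatty acid synthesis had 7 of 18 genes higher (38.9%), 0 lower and a median of 0.79. SAM and the 6 WT arrays alone each called 3 higher. Scd2, a desaturase low in adult liver, read 11.03, 12.30 and 11.78 against 6.02, 8.49 and 6.87 (4.58, SE 0.49, adjusted p = 0.000133). Acly, which supplies cytosolic acetyl-CoA, read 11.85, 11.80 and 11.50 against 11, 10.70 and 10.87 (0.86, SE 0.12, adjusted p = 0.000827). Both were separate between the groups. Scd1, the main liver desaturase, read 14.63, 14.75 and 14.70 against 14.57, 13.91 and 13.84 and did not pass (0.58, SE 0.19, adjusted p = 0.0733). Without WT 24 months replicate 1 the count was 11 and Scd1 passed, with 0.81 (adjusted p = 0.00807), and without WT 6 months replicate 3 the count was 5.

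Fat uptake and storage had 4 of 22 genes higher and 1 lower, with a median of 0.17. SAM called 2 higher. Pparg, a receptor that promotes fat storage, read 10.21, 9.50 and 9.73 against 6.46, 6.49 and 7.31 (3.06, SE 0.25, adjusted p = 1.93e-05). Gpam, which begins triglyceride synthesis, read 12.60, 12.80 and 12.78 against 12.00, 12.19 and 11.64 (0.79, SE 0.14, adjusted p = 0.0029). Lpl, lipoprotein lipase, read 13.03, 12.74 and 11.68 against 8.50, 9.85 and 11.01 (2.70, SE 0.71, adjusted p = 0.0285), and its adjusted p was 0.0949 or 0.0837 without WT 6 months replicate 1 or 2 and 0.0887 or 0.0599 without WT 24 months replicate 1 or 2. Fabp1, the liver fatty acid binding protein, did not pass (0.30, SE 0.28, adjusted p = 0.588).

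Fatty acid oxidation and ketone synthesis had 3 of 21 genes higher and 3 lower, with a median of -0.10. Fgf21, a hormone of the fasted liver, read 9.50, 9.53 and 8.96 against 6.11, 6.32 and 6.11 (3.15, SE 0.36, adjusted p = 0.000191), with the groups separate. Its bright enzymes did not pass: Hadh, a hydroxyacyl-CoA dehydrogenase, gave 0.03 (adjusted p = 0.929) and Acaa1b, a peroxisomal thiolase, gave 0.53 (adjusted p = 0.294).

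**Figure D3:**
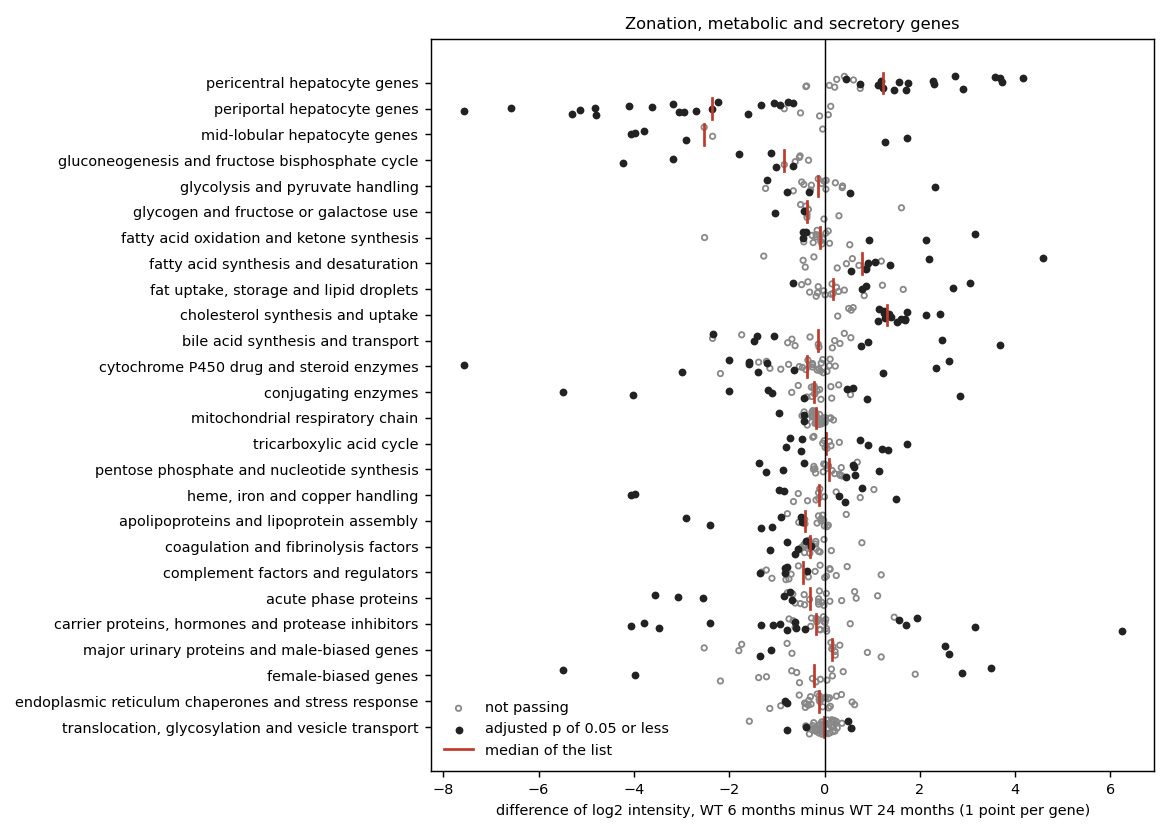
Difference of log2 intensity (horizontal axis) for each measured member of the zonation, metabolic and secretory lists, 1 point per gene, filled where the adjusted p was 0.05 or less, with each list's median as a red line. The cholesterol list lies right of 0 throughout, the periportal median is at -2.36, and most members of the translocation list lie close to 0 (median -0.01).

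The tricarboxylic acid cycle was divided, with 5 of 18 genes higher (27.8%), 4 lower (22.2%) and a median of 0.03. SAM called 3 higher and the 6 WT arrays alone 3. Idh3a, of isocitrate dehydrogenase, read 12.12, 11.66 and 11.66 against 9.95, 10.28 and 10.02 (1.73, SE 0.15, adjusted p = 2.42e-05). Cs, citrate synthase, read 11.73, 11.62 and 11.60 against 10.61, 10.20 and 10.15 (1.33, SE 0.13, adjusted p = 7.39e-05). Dlat, of the pyruvate dehydrogenase complex, read 10.27, 10.30 and 10.20 against 9.07, 9.25 and 8.82 (1.21, SE 0.13, adjusted p = 0.000136). These rises were separate between the groups. Sucla2, of succinate-CoA ligase (-0.72, SE 0.13, adjusted p = 0.00304), and Fh1, fumarase (-0.80, SE 0.15, adjusted p = 0.00507), fell.

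In the respiratory chain 3 of 35 genes were lower (8.57%) and 0 higher, with a median of -0.19, a share close to the background. Set against KO 6 months, the WT 6 months arrays had 17 of the 35 lower and 0 higher, with a median of -0.44. In that comparison 9% of all genes were lower. Sdhb, of complex II, read 12.06, 11.39 and 11.82 against 12.95, 12.90 and 12.27 (-0.95, SE 0.19, adjusted p = 0.00676). Atp5b, of the ATP synthase, did not pass (-0.14, SE 0.10, adjusted p = 0.441).

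Of 25 genes of the pentose phosphate path and nucleotide synthesis, 5 were higher and 4 lower. SAM called 2 higher and the 6 WT arrays alone 1. Pgd, which yields NADPH, read 11.27, 11.28 and 11.46 against 10.18, 10.16 and 10.24 (1.14, SE 0.12, adjusted p = 0.00011). Paics, of purine synthesis, read 11.51, 11.20 and 11.37 against 12.65, 12.71 and 12.42 (-1.23, SE 0.11, adjusted p = 2.53e-05), and Ppat, which begins that path, also fell (-0.88, SE 0.17, adjusted p = 0.00466). Pgd and Paics were separate between the groups, in opposite directions.

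Bile acid genes went both ways, with 4 of 21 higher and 4 lower. SAM called 2 higher and the 6 WT arrays alone 2. Baat, which conjugates bile acids, read 9.58, 9.65 and 9.52 against 11.22, 11.22 and 10.75 (-1.48, SE 0.12, adjusted p = 1.77e-05). Nr1h4, the bile acid receptor FXR, read 9.55, 9.47 and 9.82 against 10.90, 10.75 and 10.39 (-1.07, SE 0.15, adjusted p = 0.000664). Abcc4, an exporter, read 11.15, 11.32 and 12.44 against 6.21, 9.76 and 7.88 (3.69, SE 0.67, adjusted p = 0.00372). The groups did not overlap, and Abcc4 varied most within WT 24 months.

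Of 34 drug and steroid P450s, 3 were higher (8.82%) and 8 lower (23.5%). Cyp1a2, which oxidizes caffeine, read 14.23, 14.31 and 14.62 against 13.20, 13.25 and 13.01 (1.24, SE 0.13, adjusted p = 9.08e-05). Cyp2b10, which the receptor CAR induces, read 5.57, 5.29 and 5.67 against 8.67, 8.17 and 8.68 (-3.00, SE 0.16, adjusted p = 9.92e-07). Cyp3a11 read 14.17, 14.45 and 14.36 against 14.51, 14.32 and 14.35 and did not pass (-0.07, SE 0.10, adjusted p = 0.757). Among 26 conjugating enzymes, 4 were higher and 6 lower. SAM called 2 lower and the 6 WT arrays alone 3. Nat8, an acetyltransferase, rose (2.85, SE 0.33, adjusted p = 0.000212), and Nnmt, which methylates nicotinamide, read 9.40, 8.37 and 6.75 against 11.54, 12.50 and 12.53 (-4.02, SE 0.62, adjusted p = 0.00138).

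Of 19 genes of heme, iron and copper, 4 were higher and 4 lower. SAM called 0 higher and the 6 WT arrays alone 1. Tfr2, an iron sensor upstream of hepcidin, read 11.77, 11.87 and 11.73 against 12.74, 12.92 and 12.58 (-0.96, SE 0.10, adjusted p = 0.000113). Slc40a1, the iron exporter that hepcidin removes, read 11.78, 11.53 and 11.36 against 12.48, 12.52 and 12.22 (-0.86, SE 0.13, adjusted p = 0.00125). Blvrb, a biliverdin reductase, read 13.38, 13.08 and 13.63 against 11.46, 12.55 and 11.57 (1.51, SE 0.26, adjusted p = 0.00303). All 3 were separate between the groups.

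Genes of secreted proteins were called lower more often than higher. Of 21 apolipoproteins and assembly genes, 7 (33.3%) were lower and 0 higher, with a median of -0.41. SAM and the 6 WT arrays alone each called 4 lower. Apoa5, which promotes the clearance of triglyceride, read 11.65, 12.37 and 11.09 against 14.06, 14.36 and 13.92 (-2.41, SE 0.25, adjusted p = 9.24e-05). Apom, a carrier of sphingosine 1-phosphate, read 9.22, 11.10 and 9.83 against 12.90, 13.01 and 12.94 (-2.90, SE 0.35, adjusted p = 0.000261). Both were separate between the groups. Apoa1, the main protein of HDL, did not pass (0.05, SE 0.08, adjusted p = 0.793) and was near the top of the scale.

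Coagulation factors gave 6 of 23 lower (26.1%) and 0 higher. SAM called 3 lower and the 6 WT arrays alone 3, and housekeeping centring gave 1. F7, which starts the extrinsic path, read 10.52, 10.64 and 10.30 against 11.79, 11.73 and 11.35 (-1.14, SE 0.13, adjusted p = 0.000161). F10 read 12.55, 12.56 and 12.59 against 13.20, 13.23 and 13.15 (-0.62, SE 0.13, adjusted p = 0.00803), a call lost after centring on housekeeping genes (adjusted p = 0.127). Fga, a fibrinogen chain, did not pass (-0.30, SE 0.14, adjusted p = 0.217). Complement gave 5 of 22 lower (22.7%) and 0 higher, among them Masp1, a protease of the lectin path (-0.83, SE 0.13, adjusted p = 0.00185). SAM called 1 lower and the 6 WT arrays alone 1, and housekeeping centring gave 2.

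Acute phase proteins gave 6 of 25 lower (24%) and 0 higher. Set against KO 6 months, the WT 6 months arrays had 9 of them higher and 0 lower. KO 24 months tumor set against WT 24 months had 0 higher and 4 lower. SAM called 1 lower and the 6 WT arrays alone 1. Orm3, an orosomucoid, read 5.01, 5.91 and 4.89 against 8.28, 8.97 and 9.26 (-3.57, SE 0.33, adjusted p = 4.53e-05), with the KO-labelled arrays at 5.45 to 7.86. Mt2, a metallothionein, read 9.04, 11.76 and 9.28 against 12.71, 12.89 and 13.68 (-3.07, SE 0.58, adjusted p = 0.00501), with the KO-labelled arrays at 6.97 to 9.03. For both genes the WT 24 months arrays were above the 9 others. Hp, haptoglobin, did not pass (-0.06, SE 0.13, adjusted p = 0.862).

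Carriers, hormones and protease inhibitors, a list that holds Afp, gave 5 of 34 higher (14.7%) and 11 lower (32.4%). The lower count was 6 by SAM and 7 with the 6 WT arrays alone or after housekeeping centring. Igf1, the growth factor that liver releases under growth hormone, read 11.90, 11.56 and 11.81 against 13.10, 13.15 and 13.05 (-1.34, SE 0.10, adjusted p = 9.07e-06). Enho, which encodes the hormone adropin, read 6.20, 6.91 and 5.84 against 9.14, 9.82 and 10.38 (-3.47, SE 0.33, adjusted p = 5.79e-05). The groups were separate for both. Ttr, transthyretin, did not pass (-0.02, SE 0.08, adjusted p = 0.911).

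Few genes of protein folding and export were called. Of 28 chaperones and stress genes, 2 (7.14%) were lower and 0 higher. They were Edem1, of glycoprotein disposal (-0.78, SE 0.10, adjusted p = 0.000523), and Herpud1, of the same disposal path (-0.84, SE 0.22, adjusted p = 0.0288), whose adjusted p was between 0.0638 and 0.0773 without any of WT 6 months replicates 1 to 3 or WT 24 months replicates 2 and 3. Of 51 genes of translocation, glycosylation and vesicle transport, 2 were higher and 2 lower (3.92% each), under the background. One of them, Lman1, a cargo receptor for coagulation factors, read 11.28, 10.99 and 11.14 against 11.99, 11.80 and 12.01 (-0.80, SE 0.12, adjusted p = 0.00107).

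Endothelial markers were lower almost throughout, with 25 of 30 lower (83.3%), 1 higher and a median of -1.37. Clec4g, a lectin, read 7.90, 6.89 and 7.78 against 9.48, 9.62 and 9.94 (-2.16, SE 0.22, adjusted p = 9.56e-05). Ptprb, a phosphatase of vessels, read 7.76, 6.69 and 7.72 against 9.42, 10.11 and 10.03 (-2.46, SE 0.26, adjusted p = 0.000132). Stab1, a scavenger receptor, read 7.51, 7.41 and 7.42 against 8.36, 8.56 and 8.62 (-1.06, SE 0.12, adjusted p = 0.00015). The groups were separate for all 3, and the list's median per array lay at 7.11, 6.63 and 6.83 in WT 6 months and 8.0, 8.32 and 8.71 in WT 24 months. With the 6 WT arrays alone 13 members were lower, and SAM called 9.

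Rspo3, Wnt2 and Wnt9b, signals that liver endothelium sends to pericentral hepatocytes, are on that list and are named for this role, chosen after their values were seen. Rspo3 read 5.36, 4.41 and 5.01 against 6.49, 6.94 and 6.88 (-1.84, SE 0.22, adjusted p = 0.000285). Wnt2 read 5.39, 4.98 and 4.76 against 5.88, 5.88 and 6.75 (-1.13, SE 0.27, adjusted p = 0.0174). Wnt9b read 5.52, 5.44 and 5.58 against 5.66, 5.72 and 5.87 and did not pass (-0.23, SE 0.11, adjusted p = 0.234). The pericentral list rose in the same arrays.

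Stellate cell, fibroblast and matrix genes gave 15 of 29 lower (51.7%), 0 higher and a median of -0.77, and SAM called 9 lower. Colec10, a collectin, read 6.70, 5.40 and 5.50 against 8.76, 9.25 and 9.56 (-3.32, SE 0.30, adjusted p = 3.78e-05). Dcn, the matrix proteoglycan decorin, read 9.55, 8.08 and 8.43 against 11.35, 11.94 and 11.89 (-3.04, SE 0.30, adjusted p = 6.57e-05). Pdgfra, a growth factor receptor of fibroblasts, fell too (-2.34, SE 0.23, adjusted p = 7.39e-05). These were separate between the groups. Of the collagens, Col1a1 (0.57, adjusted p = 0.0554), Col3a1 (0.19, adjusted p = 0.896) and Col4a1 (0.58, adjusted p = 0.0842) did not pass.

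Kupffer cell and macrophage markers gave 3 of 23 lower (13%), with a median of -0.82, and WT 24 months replicate 3 stood apart. The list's median per array was 7.65, 8.42 and 10.53 in WT 24 months and 7.81, 8.0 and 7.39 in WT 6 months. Csf1r, a macrophage growth factor receptor, read 10.77, 10.67 and 10.18 against 10.20, 10.92 and 13.28 and did not pass (-0.93, SE 0.58, adjusted p = 0.367). Clec4f, a lectin of Kupffer cells, read 9.05, 8.52 and 7.39 against 9.58, 10.04 and 12.44 (-2.37, SE 0.62, adjusted p = 0.0259), and its adjusted p was 0.0546 or 0.0905 without WT 6 months replicate 2 or 3. Cd163, a scavenger receptor of macrophages, was lowest in that array of its group, with 5.89, 5.15 and 3.79 against 7.65, 8.65 and 5.57.

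The same array was highest for the T and NK lymphocyte list. The list for T and NK cells had a median of 4.66, 4.79 and 5.77 in WT 24 months and 4.87, 4.53 and 4.76 in WT 6 months. Only 1 of its 20 members was called, lower (5%, against 6.22% of all genes). It was Zap70, a kinase of T cells (-1.47, SE 0.27, adjusted p = 0.00371). H2-Aa, of antigen presentation, read 11.08, 10.40 and 10.78 against 9.21, 9.16 and 13.77. Without WT 24 months replicate 3 it was higher in WT 6 months by 1.57 (adjusted p = 0.000839). Cd74, its partner, read 10.55, 9.76 and 10.21 against 8.83, 8.84 and 13.45, and turned from -0.20 (adjusted p = 0.938) to 1.34 (adjusted p = 0.00346) without that array. B cell and plasma cell markers gave 2 of 18 lower (11.1%, against 6.22% of all genes). Neutrophil, platelet and erythroid genes gave 1 of 20 higher (5%), under the 7.07% of all genes. It was Car2, a carbonic anhydrase (3.6, SE 0.21, adjusted p = 1.54e-06).

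**Figure D4:**
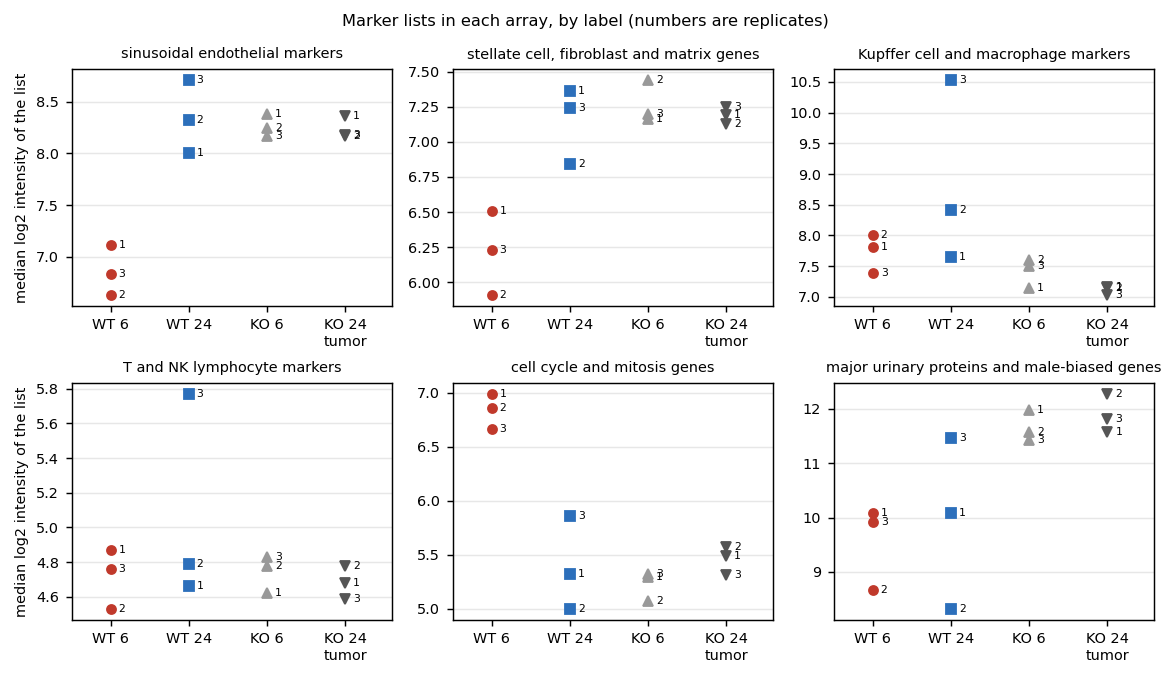
Median log2 intensity (vertical axis) of 6 gene lists in each array, grouped by deposited label (horizontal axis), with replicate numbers beside the points. The WT 6 months arrays lie under all others for the endothelial and stellate lists and above all others for the cell cycle list, and WT 24 months replicate 3 is the highest array for the Kupffer and T and NK lists, at 10.53 and 5.77.

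Bile duct and progenitor markers gave 3 of 18 higher and 3 lower. Krt8 (1.4, SE 0.21, adjusted p = 0.00123) and Krt18 (1.17, SE 0.16, adjusted p = 0.000587), keratins of ducts and of hepatocytes, rose. Prom1, a progenitor surface protein, read 7.93, 9.08 and 8.72 against 5.76, 6.93 and 4.38 (2.89, SE 0.52, adjusted p = 0.00367). Krt19 (0.75, adjusted p = 0.386), Epcam (0.16, adjusted p = 0.391) and Sox9 (-0.44, adjusted p = 0.186), which mark ducts more closely, did not pass. Aqp1, a water channel of ducts and vessels, fell (-2.15, SE 0.32, adjusted p = 0.00123).

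Hepatocyte transcription factors and receptors gave 2 of 32 higher and 8 lower (25%), with a median of -0.21. SAM called 3 lower and the 6 WT arrays alone 3, and housekeeping centring gave 4. Tbx3, a repressor induced by Wnt signals, read 10.60, 10.45 and 10.37 against 8.17, 7.32 and 7.71 (2.74, SE 0.28, adjusted p = 9.6e-05). Igf1r, the receptor for Igf1, read 5.73, 5.64 and 5.73 against 6.37, 6.71 and 6.72 (-0.90, SE 0.13, adjusted p = 0.000866). Both were separate between the groups. Hnf4a, on which hepatocyte identity depends, did not pass (-0.14, SE 0.10, adjusted p = 0.486).

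Of 40 cell cycle genes, 19 (47.5%) were higher and 1 lower, with a median of 0.84. Birc5, survivin, read 7.0, 6.88 and 6.50 against 4.12, 4.33 and 4.90 (2.35, SE 0.22, adjusted p = 4.76e-05). Ccnb2, a mitotic cyclin, read 7.39, 6.96 and 7.0 against 4.77, 4.25 and 5.33 (2.34, SE 0.24, adjusted p = 8.73e-05). Cdkn2c, which inhibits kinases of the cycle, rose with them (2.17, SE 0.22, adjusted p = 7.41e-05). None of them overlapped between the groups. With dim genes left out 8 members were higher, and SAM called 11.

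Of 30 fetal and imprinted genes, 11 were higher (36.7%) and 3 lower (10%), with a median of 0.05, and SAM called 7 higher. Maternally expressed noncoding RNAs of the Dlk1-Dio3 locus were among the rises. Meg3 read 13.79, 13.54 and 13.92 against 10.27, 9.08 and 9.58 (4.11, SE 0.30, adjusted p = 9.1e-06), and Rian (4.55, SE 0.29, adjusted p = 3.27e-06) and Mirg (2.81, SE 0.20, adjusted p = 7.37e-06) rose with it. All 3 were separate between the groups. Dlk1, the paternally expressed gene there, did not pass (0.03, SE 0.17, adjusted p = 0.957).

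Male-biased genes gave 2 of 17 higher and 2 lower, and female-biased genes 2 of 18 and 2. The male-biased median per array was 10.08, 8.66 and 9.91 in WT 6 months and 10.09, 8.32 and 11.46 in WT 24 months. The female-biased median was 7.42, 8.91 and 7.07, and 7.95, 9.18 and 7.14. Replicate 2 of each group was thus lowest for the male-biased list and highest for the female-biased list, which holds Sult3a1. Mup3, a major urinary protein, read 10.08, 10.08 and 8.23 against 13.85, 8.32 and 13.80 and did not pass (-2.53, SE 1.16, adjusted p = 0.196). Without WT 24 months replicate 2, the low array of its group, its difference was -4.36 (adjusted p = 0.000165). The KO-labelled arrays read 13.92 to 14.29.

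Interferon-induced genes gave 1 of 23 higher (4.35%) and 2 lower (8.7%), near the background of 7.07% and 6.22%. The list's median per array was 8.14, 8.01 and 7.52 in WT 6 months and 8.33, 7.13 and 9.1 in WT 24 months. Irf7, an interferon regulatory factor, read 8.01, 8.16 and 7.73 against 11.25, 8.94 and 10.21 (-2.17, SE 0.42, adjusted p = 0.00578), with the WT 24 months arrays above the 9 others.

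Y-linked genes were lower although all animals are labelled male. Eif2s3y, a translation factor, read 4.63, 6.94 and 6.88 against 9.33, 9.93 and 9.45 (-3.42, SE 0.47, adjusted p = 0.000727). Kdm5d, a histone demethylase, read 3.42, 4.73 and 4.48 against 6.73, 6.78 and 6.63 (-2.51, SE 0.26, adjusted p = 9.36e-05). Uty, of the same enzyme class, read 3.85, 4.70 and 4.52 against 6.51, 6.43 and 6.26 (-2.05, SE 0.20, adjusted p = 5.92e-05). All 3 genes were separate between the groups. Xist, which is made from an inactive X chromosome, read 5.66, 5.59 and 6.77 against 5.96, 5.46 and 5.39 and did not pass (0.40, SE 0.29, adjusted p = 0.443).

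Whole chromosomes were shifted in the WT 6 months arrays. The shift, computed after the Y-linked values were seen, is the median difference of an array from the WT 24 months mean over the genes of a chromosome, among 11578 brighter genes. Over 726 genes of chromosome 4 it was -0.18, -0.20 and -0.21 in the WT 6 months arrays and between -0.03 and 0.07 in the 9 others. Of these, the 3 WT 24 months arrays lie around 0 by construction, and the 6 KO-labelled arrays read 0.02 to 0.07. Over 758 genes of chromosome 5 it was -0.14, -0.15 and -0.07. With the genes cut by position into 4 blocks, every block of both chromosomes was negative in each of the 3 arrays.

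Other chromosomes were shifted in 1 or 2 of the WT 6 months arrays. Over 906 genes of chromosome 2 the shift was 0.05, 0.04 and 0.26 in WT 6 months replicates 1 to 3. Over 402 genes of chromosome 12, which holds the Dlk1-Dio3 locus, it was 0.20, -0.01 and 0.00. Over 308 genes of the X chromosome it was 0.19, 0.61 and 0.03. In replicate 1 it was also 0.13 for chromosome 8, -0.15 for chromosome 14 and -0.13 for chromosome 15. In the 9 other arrays each autosome and the X chromosome lay between -0.07 and 0.08. Of the chromosome 4 genes 18% were called lower and 4.41% higher, and of the X-linked genes 4.22% and 17.9%, where 8.92% and 9.64% of the 11578 brighter genes were. The part of these shifts in the list results was not tested.

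**Figure D5:**
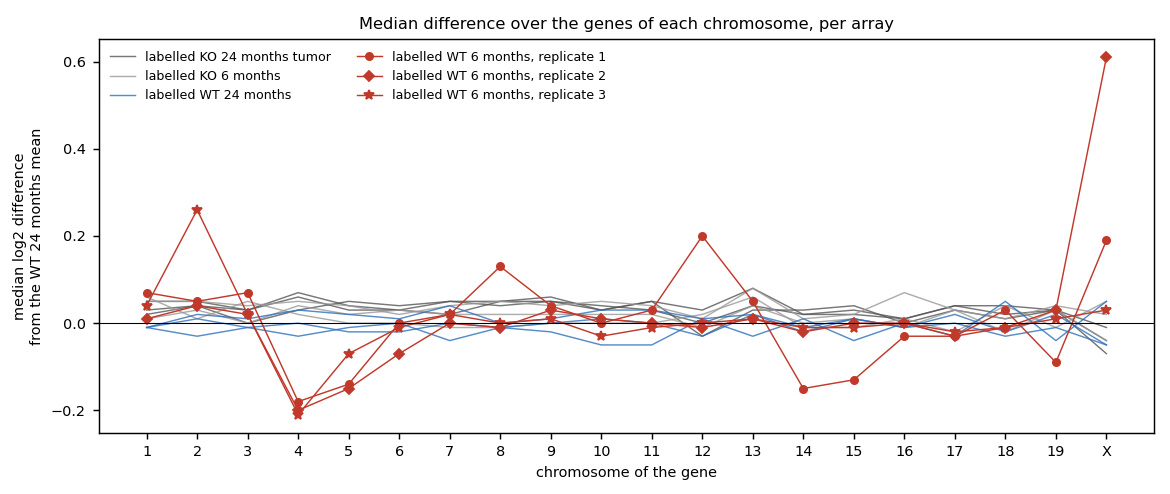
Median log2 difference from the WT 24 months mean (vertical axis) over the brighter genes of each chromosome (horizontal axis), 1 line per array. The WT 6 months arrays (red) share a low point at chromosome 4, from -0.21 to -0.18, and differ among themselves at chromosomes 2, 12 and X, where the highest of them reach 0.26, 0.20 and 0.61.

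Whether a difference between the WT-labelled groups differed from that between KO 6 months and KO 24 months tumor was tested as an interaction in limma. With the labels exchanged, this contrast is the genotype difference at 24 months minus that at 6 months. It passed for 879 genes (4.83%) and for 313 (71.1%) of the 440 genes called at a fold of 3, which part of the same contrast chose. Leaving out KO 6 months replicate 2 or 3 or any KO 24 months tumor array gave 533 to 578 genes. It was 5.70 (SE 0.57, adjusted p = 0.000219) for Afp and -7.45 (SE 0.83, adjusted p = 0.000443) for Cyp2f2. For Iqgap2 it was -0.02 (SE 0.22, adjusted p = 0.978), since the KO-labelled pair differed as the WT-labelled pair did.

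Neighbouring comparisons share arrays with this one, so their values stand side by side only. Set against KO 6 months, the WT 6 months arrays had 1463 genes (8.04%) above and 1637 (9%) under, and the pericentral list had 17 higher, the periportal list 19 lower, the cholesterol list 12 higher, the endothelial list 22 lower and the cell cycle list 28 higher. KO 24 months tumor set against WT 24 months had 62 genes (0.341%) above and 42 (0.231%) under. The medians of the same lists there were 0.15, 0.04, -0.01, 0.02 and -0.11.

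Rspo3 and Wnt2, chosen after their values were seen, are left out of the account that follows. Among the other genes named above as higher or lower, Sult3a1, Hamp, Pdk4, Khk, Lpl, Fh1, Sdhb, Abcc4, Mt2, Herpud1, Clec4f, Zap70, Prom1 and Irf7 lost their call when limma was fitted to the 6 WT arrays alone, with adjusted p between 0.0599 and 0.167. SAM over the 20 splits of these arrays did not call them either, nor did it call Adgrg2, Gpam, Sucla2, Nnmt, Blvrb, Aqp1 and Eif2s3y. Centring on housekeeping genes removed the calls of Khk (adjusted p = 0.0507), Sucla2 (0.0593), Sdhb (0.0535) and Herpud1 (0.053), and a trended prior those of Lpl (0.0572) and Clec4f (0.0523).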

How the data were processed

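Total RNA of 12 mouse livers was measured on Affymetrix whole-genome mouse arrays. The deposited values are log2 intensities that the authors normalised with RMA, and their array medians lay between 5.41 and 5.45. No per-array depth exists for arrays, and their number limits the precision.

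Of 45101 probe sets, 34958 named 1 gene in the platform annotation, 932 several and 9211 none. The brightest probe set stood for each of 18194 genes. A limma 3.58.1 model in R 4.3.3 was fitted to the 4 labelled groups of 3 arrays. Every adjusted p in the text is limma's, after Benjamini-Hochberg over all genes. The exception is that of the second Iqgap2 probe set, which was adjusted over all probe sets. Genes were called at a fold of 3 and an adjusted p of 0.05, and members of 38 lists (818 of 915 genes measured) at the adjusted p alone. An exact permutation test of 3 against 3 arrays cannot go below 0.1, so none was used.

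The members and lists were chosen with earlier results of these data known. Named genes are Iqgap2, Afp, for each list the 4 called members of lowest adjusted p (all where 5 or fewer were called) and the 2 brightest members, and the 12 largest rises and falls without overlap. Other genes are named from the lists and were chosen after their values were seen.

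Group replicate numbers did not pair the arrays (correlations of same-numbered deviations -0.078, 0.075 and -0.063). Replicate arrays correlated at 0.972 to 0.986 in WT 24 months and at 0.988 to 0.989 in WT 6 months. The alternatives were SAM over all 20 splits, the 6 WT arrays alone, a replicate block, the mean of probe sets, centring on medians or on housekeeping genes, dim genes left out, a trended prior, every probe set, a fold of 2, and each array left out in turn. The fit was tested on simulated data. Promoters came from RefSeq (GRCm38.p6), and figures were drawn with matplotlib 3.10.9.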

Additional observations from a re-analysis of the deposited data

Results flagged for a closer look

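The difference between the WT-labelled groups was set against that between the KO-labelled groups by the interaction in limma. It passed for 313 of the 440 genes called at a fold of 3 and for 101 of the 203 named genes. Over all 18194 genes it passed for 879 (4.83%). Part of the same contrast chose the 440 genes and most named genes, so these counts are a description. For Afp the interaction was 5.70 on the log2 scale (SE 0.57, adjusted p = 0.000219). Of the probe sets that name no gene, 77 of 9211 were called between WT 6 months and WT 24 months at a fold of 3. This is a smaller share than the 647 of 34958 that name 1 gene or the 741 of 45101 over all probe sets.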

How the results depend on the processing

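Counts of genes called higher and lower at a fold of 3 (218 and 222) were 130 and 115 by SAM, 398 and 343 over every probe set and 486 and 454 at a fold of 2. At the adjusted p alone (1286 and 1132) they were 545 and 385 by SAM, 515 and 408 with the 6 WT arrays alone, and 2234 and 1711 over every probe set, and centring on housekeeping genes gave 615 lower and moved the median of all genes from -0.013 to 0.135. SAM called 3 genes of fatty acid synthesis higher, 7 of the fetal list and 11 of the cell cycle list, and lower 2 mid-lobular genes, 4 apolipoprotein genes, 6 carriers, 9 endothelial and 9 stellate genes. The 6 WT arrays alone gave 3 genes of fatty acid synthesis higher, and lower 2 mid-lobular, 4 apolipoprotein, 7 carrier and 13 endothelial genes. The 203 named genes include bright list members that were not called in the main fit and had no call to lose. Among the named genes, 60 lost their call by SAM, 53 with the 6 WT arrays alone, 24 after housekeeping centring and 10 to the replicate block. Housekeeping centring gave 7 carriers lower, and with dim genes left out 8 cell cycle genes were higher. SAM and the fit to fewer arrays rest on fewer samples; the cause of the other shifts was not tested.

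List medians that turned sign were small: fatty acid oxidation at 0.05 and translocation at 0.13 after housekeeping centring, the neutrophil list at -0.24 with dim genes left out, and fat uptake from 0.00 to 0.29 with an array left out. Leaving out arrays in turn, the interaction passed for 533 to 1180 genes, fatty acid synthesis had 5 to 11 members higher, and Cd74 ran from -0.97 to 1.34. The replicate block gave 216 and 218 genes at a fold of 3, 1215 and 1035 at the adjusted p and 779 for the interaction, and 1 of the 3 WT 6 months arrays correlated best with the WT 24 months array of its own number.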

Other observations

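Some genes separated both WT-labelled groups from both KO-labelled groups, and this contrast was picked with their values known. At a fold of 3 and an adjusted p of 0.05 in limma, the WT-labelled arrays had 128 genes above and 68 under the KO-labelled ones, and 50 and 22 of these were not called between WT 6 months and WT 24 months. If KO 24 months tumor and WT 6 months exchanged their labels, this contrast sets 24 months against 6 months. Lcn2, an iron-binding protein of acute inflammation, averaged 12.59 in WT 6 months, 11.92 in WT 24 months, 5.79 in KO 6 months and 6.43 in KO 24 months tumor. Fgl1, a secreted fibrinogen-like protein, averaged 13 and 13.62 against 10.6 and 9.74 in the same order, and Igfbp1, which binds insulin-like growth factors, 13.51 and 12.97 against 11.58 and 8.97. Hsd3b5, a steroid enzyme of male liver, went the other way, with 4.55 and 6.35 against 10.86 and 11.44.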
